A study of Homo sapiens with 8 samples.

Results

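The claudins, occludin and the tricellular junction proteins are the membrane-spanning proteins of tight junctions. They were followed here through 10 genes: the claudin genes CLDN1, CLDN5, CLDN6, CLDN7, CLDN11 and CLDN12, the MARVEL family genes OCLN, MARVELD2 and MARVELD3, and LSR. The genes were chosen by name, with earlier results of these data known. All 10 were among the 30386 genes of the deposited read count table, and all 10 passed the filter on low counts that left 15330 genes for testing.

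RNA was sequenced from endothelial cells (iEC) and from retinal endothelial cells (iREC) made from WTC-TJP1, an established human line of induced pluripotent stem cells. Each group had 4 samples, lettered C, D, E and F, and every sample was taken at passage 1. Both groups come from 1 line and carry the same cell type label, and the series calls the iREC a matched differentiation. The agents used to make either cell type are not given in the sources used here. Nothing states that samples of a group came from separate cultures, so p-values measure the spread between these samples, which may be technical.

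Tight junctions seal the space between neighbouring cells of an epithelium or endothelium. Claudins polymerise into the strands that set which ions and molecules pass, and endothelial cells of the brain and retina depend on CLDN5 for a tight barrier. Occludin and its MARVEL relatives sit within the strands, MARVELD2 (tricellulin) gathers where the corners of cells meet, and LSR (angulin-1) recruits it to those corners.

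The iEC libraries held 14877502 to 16971865 counts and the iREC libraries 13739364 to 15987839. Levels are given in CPM, counts scaled to a common library size after TMM normalization, and the detection floor of 3 counts was worth 0.178 to 0.215 CPM. All 12 endothelial markers listed were tested, and their summed level was 8171 to 11412 CPM in iEC and 5119 to 10945 CPM in iREC. The library of iREC F stood apart: it held the lowest endothelial sum and the highest sums of epithelial markers (5038 CPM, against 329 to 1180 CPM in the other iREC samples) and of mural and mesenchymal markers (4583 CPM, against 646 to 1281 CPM). Results that rest on iREC F are given with and without it.

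Stretches before the start sites of 4 of the genes are shown first. They were searched for the E-box bound by Snail and ZEB repressors, since SNAI2 and ZEB2 were higher in iREC. The relatives SNAI1 and ZEB1 were not called. RefSeq start-site entries on GRCh38.p14 were matched for 8 of the 10 genes, in 11 entries, and none were matched for CLDN5 and MARVELD3. In the 30-base windows of CLDN7 and OCLN, capitals mark the E-box CAGGTG or its reverse complement CACCTG, and each window is written 5′ to 3′ on the strand of its gene.
CLDN7, chr17:7262635-7262664, minus strand: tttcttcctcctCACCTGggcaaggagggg
CLDN7, chr17:7262596-7262625, minus strand: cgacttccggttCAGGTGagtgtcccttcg
CLDN7, chr17:7262479-7262508, minus strand: tacatatactCAGGTGcgcccCACCTGtcc
OCLN, chr5:69492502-69492531, plus strand: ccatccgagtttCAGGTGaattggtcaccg
OCLN, chr5:69492645-69492674, plus strand: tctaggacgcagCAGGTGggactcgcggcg

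The 3 CLDN7 windows hold 4 E-boxes in the 250 bases before the start site at 7262478. The copies begin between 174 and 9 bases before that site, which lies inside the longer gene model used for counting. The other CLDN7 entry has none. OCLN has 1 copy before each of its 2 start sites, 33 and 133 bases upstream. Of all 35116 RefSeq entries with the same 250 bases, 17.5% hold at least 1 copy on either strand and 0.122% hold at least 4. The letters thus occur in a gene that fell in iREC (CLDN7, 4 copies before 1 start site) and in a gene that rose (OCLN, 1 copy before each). A match is a description, not a binding site, and any part of the E-boxes in these levels was not tested.

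CLDN11 and MARVELD2, which both rose, have no E-box in these windows. Their stretches are shown with the GC box GGGCGG, or its reverse complement CCGCCC, in capitals.
CLDN11, chr3:170418618-170418864, plus strand: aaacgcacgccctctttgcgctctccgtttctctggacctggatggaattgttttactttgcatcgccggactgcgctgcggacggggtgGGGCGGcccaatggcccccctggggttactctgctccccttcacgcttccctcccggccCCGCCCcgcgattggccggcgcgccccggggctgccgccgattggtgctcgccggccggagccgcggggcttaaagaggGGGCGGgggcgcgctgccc
MARVELD2, chr5:69414866-69415064, plus strand: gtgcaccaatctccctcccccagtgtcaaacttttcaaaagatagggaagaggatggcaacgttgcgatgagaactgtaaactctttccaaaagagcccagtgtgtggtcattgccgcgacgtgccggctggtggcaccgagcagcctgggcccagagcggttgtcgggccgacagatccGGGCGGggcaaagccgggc

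The CLDN11 stretch of 247 bases holds 3 GC boxes, and the MARVELD2 stretch of 199 bases holds 1. The MARVELD2 stretch stops 51 bases short of its start site, and the full 250 bases hold 3 GC boxes, as many as those of CLDN11. A GC box occurs in 42.6% of all entries and in 6 of the 8 matched genes (CLDN1, CLDN6, CLDN7, CLDN11, OCLN and MARVELD2). A gene was counted if any of its entries held the letters, so here and below counts of genes and shares of entries are not like measures. The TATA box letters TATAAA and the forkhead letters GTAAACA were in none of the 8 genes, against 10.7% and 2.98% of all entries. The ETS letters CCGGAAG, in 8.52% of entries, were found in CLDN7, and the SOX letters ACAAAG, in 13.7%, in CLDN11 and LSR.

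Of the 10 genes, 7 differed between the groups by edgeR's quasi-likelihood test at an adjusted p under 0.05, where 25.0% of all tested genes did. CLDN5, CLDN11, OCLN, MARVELD2, MARVELD3 and LSR were higher in iREC, 6 of 10 against 13.2% of all tested genes. CLDN7 was lower, 1 of 10 against 11.7%. The median log2 fold change of the 10 was 1.95, beside 0.02 over all tested genes. The groups did not overlap in 5 of the 10 (CLDN7, CLDN11, OCLN, MARVELD2 and MARVELD3), against 29.1% of tested genes. MARVELD3 passed the filter on low counts through iREC alone, so its lack of overlap follows from the filter. The authors' deposited table lists an adjusted p under 0.05 for the same number, 7 of 10, against 16.3% of its genes. Because the 10 genes were chosen with earlier results of these data known, their shares beside all genes are a description only. In bulk RNA, fewer cells that express a gene and less RNA per cell cannot be told apart.

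**Figure D1:**
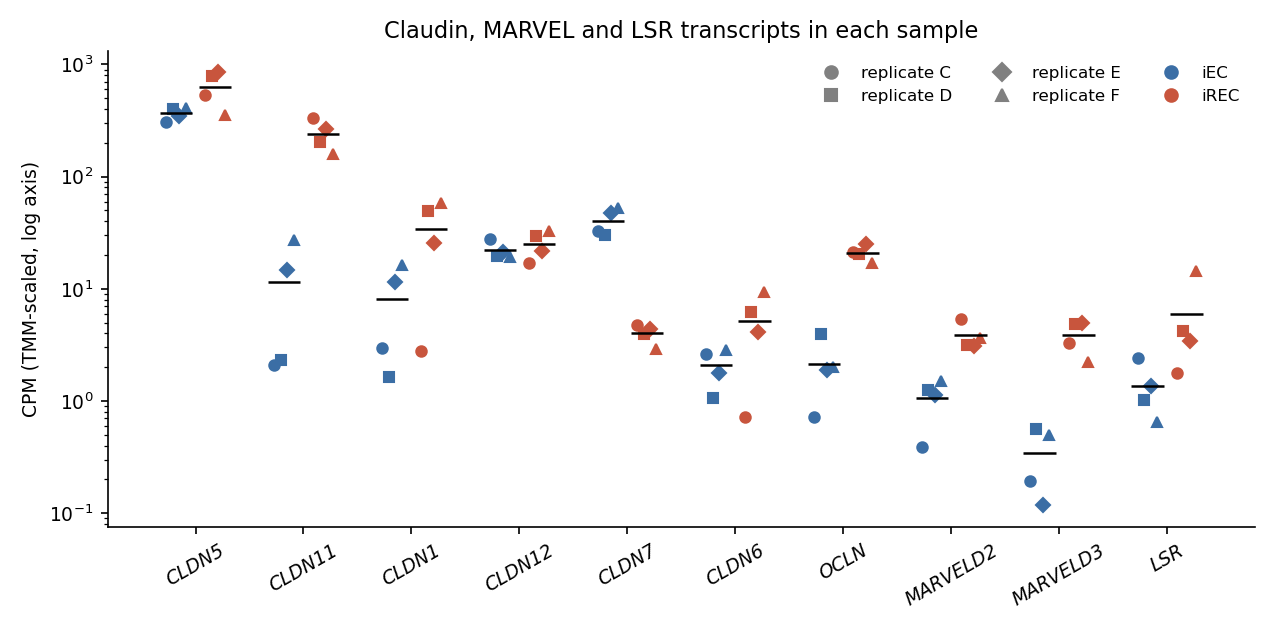
Level of each of the 10 genes in each sample, in CPM on a log axis, with iEC in blue, iREC in red, 1 marker shape per replicate letter and a black line at the group mean. CLDN7 falls between the groups while CLDN11, OCLN and MARVELD2 rise with no overlap. MARVELD3 also rises, and its lack of overlap follows from the filter on low counts. CLDN1, CLDN6 and LSR spread widely within iREC.

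CLDN5 (ENSG00000184113, GRCh38 chromosome 22, 19523024 to 19527545, minus strand), the main claudin of vascular endothelium, had 309, 401, 347 and 405 CPM in iEC samples C, D, E and F. In iREC the same letters gave 538, 791, 849 and 357 CPM. Samples C, D and E of iREC lay above every iEC sample, and iREC F lay among them. CLDN5 rose 1.73-fold, from 365 ± 45.8 to 634 ± 229 CPM (SD, n = 4), or 0.79 ± 0.26 on the log2 scale (SE; adjusted p 0.0490 by edgeR). With iREC F left out the difference was 0.99 on the log2 scale (edgeR adjusted p 0.00487). The call was lost in each of the other 7 fits that left out a sample, and the adjusted p over the 16 alternatives ran from 0.00487 to 0.134.

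CLDN11 (ENSG00000013297, chromosome 3, 170418865 to 170454733, plus strand) is known for the strands of myelin and of the Sertoli cell barrier. Its iEC levels were 2.08, 2.34, 14.8 and 27.1 CPM in C, D, E and F. The iREC levels were 331, 204, 265 and 159 CPM. The iEC samples thus split into a low pair, C and D, and a higher pair, E and F, and all of them lay below every iREC sample. CLDN11 rose 20.8-fold, from 11.6 ± 11.9 to 240 ± 75.0 CPM (SD, n = 4), or 4.38 ± 0.79 on the log2 scale (SE; adjusted p 0.00378 by edgeR). It was called in all 16 alternatives, with an adjusted p of at most 0.0159. The size of the rise depends on iEC F, without which it was 5.21 on the log2 scale, and it was 5.13 by limma-voom. The oligodendrocyte genes MOG and SOX10 averaged at most 0.220 CPM in either group. The list of oligodendrocyte and Sertoli markers had 0 of 3 tested genes called by edgeR, and all 3 had a positive log2 fold change (median 0.05). The list summed to 15.6 to 27.1 CPM in iEC and 6.67 to 36.2 CPM in iREC, mostly from genes other than MOG and SOX10. Its part in the CLDN11 levels was not tested. GENCODE 29 places 683 exon bases of CLDN11 inside another gene model on the same strand, AC026316.5.

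CLDN7 (ENSG00000181885, chromosome 17, 7259903 to 7263983, minus strand) is a claudin best known from epithelia. It was at 33.0, 29.9, 47.1 and 52.5 CPM in iEC C, D, E and F. In iREC it was at 4.78, 3.997, 4.40 and 2.88 CPM. The iREC samples lay close together and far below the lowest iEC sample. CLDN7 was 10.1-fold lower in iREC, 40.6 ± 10.9 against 4.01 ± 0.818 CPM (SD, n = 4), or -3.34 ± 0.25 on the log2 scale (SE; adjusted p 4.65e-05 by edgeR). It was called in all 16 alternatives. The sample with the highest epithelial marker sum, iREC F, had the lowest CLDN7 level. ELP5, on the opposite strand, shares 38 exon bases with CLDN7 and had 42.8 and 36.9 CPM, and AC003688.1, on the same strand, shares 269.

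CLDN1 (ENSG00000163347, chromosome 3, 190305701 to 190322475, minus strand), the claudin of the epidermal barrier, was not called. Its levels were 2.99, 1.64, 11.5 and 16.3 CPM in iEC C, D, E and F, and 2.81, 49.1, 25.4 and 58.2 CPM in iREC. D, E and F of iREC lay above every iEC sample, and iREC C lay with the lowest of them. The group means were 8.12 ± 7.005 and 33.9 ± 24.9 CPM (SD, n = 4), a difference of 2.06 ± 0.89 on the log2 scale (SE; adjusted p 0.124 by edgeR). Leaving out iREC C gave a log2 fold change of 2.44 with adjusted p 0.0384 by edgeR, and leaving out iREC F gave 1.66 and 0.216.

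CLDN6 (ENSG00000184697, chromosome 16, 3014712 to 3020071, minus strand) is a claudin of embryonic epithelia and pluripotent cells. It had 2.60, 1.07, 1.78 and 2.86 CPM in iEC C, D, E and F, and 0.720, 6.21, 4.15 and 9.43 CPM in iREC. The lowest of all 8 values was that of iREC C, and the other iREC samples held the highest. On the log2 scale the difference was 1.30 ± 0.64 (SE; adjusted p 0.171 by edgeR), and CLDN6 was called by edgeR without iREC C (1.66, adjusted p 0.0239). Leaving out iREC F, its highest sample, gave 0.83 and an adjusted p of 0.367 by edgeR. The pluripotency genes POU5F1, SOX2 and NANOG averaged at most 0.653 CPM in either group. LIN28A was called higher, from 16.6 ± 10.9 to 176 ± 211 CPM (SD of 4 samples, adjusted p 0.0242 by edgeR), although its groups overlapped. Its lowest iREC value was 20.5 CPM (C) and its highest 482 CPM (F). Of the pluripotency list, 5 genes were tested, with 2 called higher, 1 called lower and a median log2 fold change of 1.32. Over all tested genes, 13.2% were called higher and 11.7% lower. The list of pluripotency markers summed to 75.7 to 170 CPM in iEC and 142 to 615 CPM in iREC, and its part in the CLDN6 levels was not tested. TNFRSF12A, on the opposite strand, shares 40 exon bases with CLDN6 and averaged 89.6 CPM in iEC and 47.1 CPM in iREC. Whether counting used the strand is not stated, so the CLDN6 counts are uncertain.

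CLDN12 (ENSG00000157224, chromosome 7, 90383721 to 90513402, plus strand) lacks the tail motif by which most claudins bind the ZO scaffold proteins. It varied least between the groups, at 27.6, 19.7, 21.4 and 19.4 CPM in iEC C, D, E and F and 16.8, 29.7, 21.6 and 32.8 CPM in iREC. The ranges overlapped throughout. On the log2 scale the difference was 0.19 ± 0.23 (SE; adjusted p 0.572 by edgeR), and CLDN12 was called in 0 of 16 alternatives, with adjusted p from 0.269 to 0.909. CLDN12 shares 347 exon bases with GTPBP10 and 201 with CDK14 on the same strand. CDK14 averaged 3.15 CPM in iEC and 19.7 CPM in iREC, so the CLDN12 counts are uncertain.

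**Figure D2:**
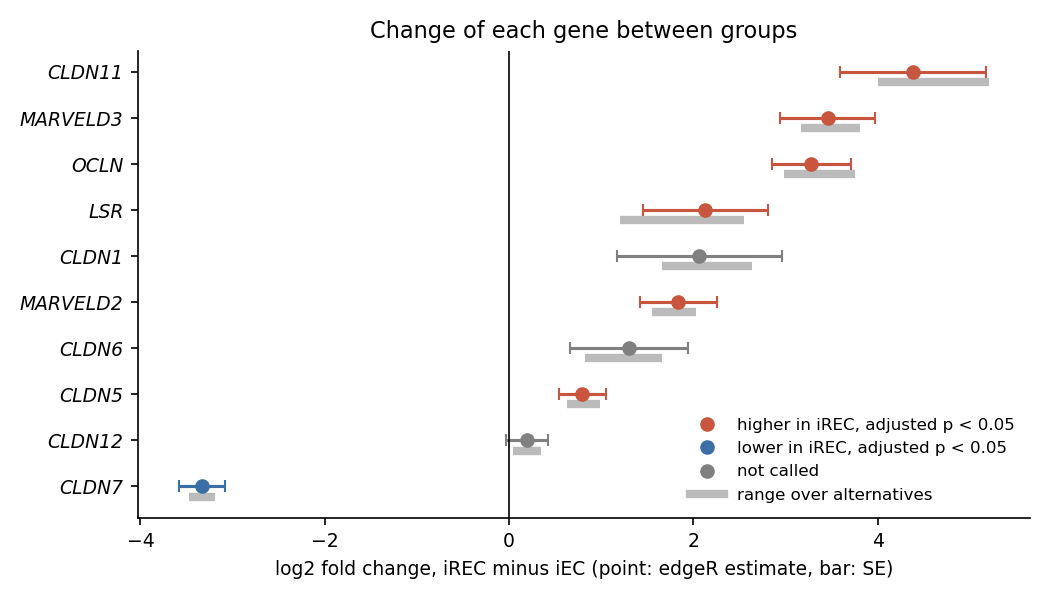
Log2 fold change of each gene, iREC minus iEC, with the edgeR estimate as a point, its SE as a bar and the range over the alternative fits as a grey band, coloured by the call at an adjusted p of 0.05. CLDN11, MARVELD3 and OCLN lie furthest to the right, CLDN7 at -3.34 is the one gene to the left, and CLDN1 and CLDN6 have wide bars.

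The next comparison asked which claudins make up the claudin RNA of each cell type. Levels were divided by gene length (CPM per kb) so that genes can be compared with one another. The table holds 20 claudin genes, of which 10 were tested. The summed level of the 20 was 115, 138, 137 and 158 CPM per kb in iEC C, D, E and F, and 266, 319, 347 and 182 CPM per kb in iREC. Every iREC sample lay above every iEC sample, with iREC F closest to them. The sum was 137 ± 17.2 in iEC and 278 ± 72.5 CPM per kb in iREC (SD, n = 4), a difference of 141 (exact two-sided permutation test, p 0.0286, adjusted p 0.0286 over 4 single values). That p is the smallest that 4 against 4 samples can give.

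CLDN5 was the most abundant claudin per length in both groups. It supplied 78.2%, 84.7%, 74.0% and 74.9% of the summed claudin level in iEC C, D, E and F, and 59.1%, 72.4%, 71.4% and 57.2% in iREC. All iREC shares were below all iEC shares. The mean share was 78.0% ± 4.85 in iEC and 65.0% ± 8.01 in iREC (SD, n = 4; exact two-sided permutation test, p 0.0286, adjusted p 0.0286). The CLDN5 share was thus smaller in iREC although the CLDN5 level itself was higher.

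Behind CLDN5 the order differed between the groups. In iEC, CLDN7 came second with 11.8% ± 2.33 (SD, n = 4), followed by CLDN12 with 2.46% and CLDN11 with 2.11%. In iREC, CLDN11 came second with 23.6% ± 7.03 (SD, n = 4), from 17.2% in D to 33.4% in C, followed by CLDN1 with 3.81% ± 3.65 (SD, n = 4). The CLDN1 share ranged from 0.289% in C to 8.73% in F and averaged 2.17% without iREC F, so its place ahead of CLDN23 and CLDN12 is not beyond its spread. CLDN7 ranked 9 with 0.593% ± 0.106 (SD, n = 4). The neighbours CLDN12 and CLDN11 in iEC did not differ beyond their SD of 0.759 and 2.02 percentage points. CLDN23 with 1.52% and CLDN12 with 1.48% in iREC lay within their SD of 0.590 and 0.822.

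**Figure D3:**
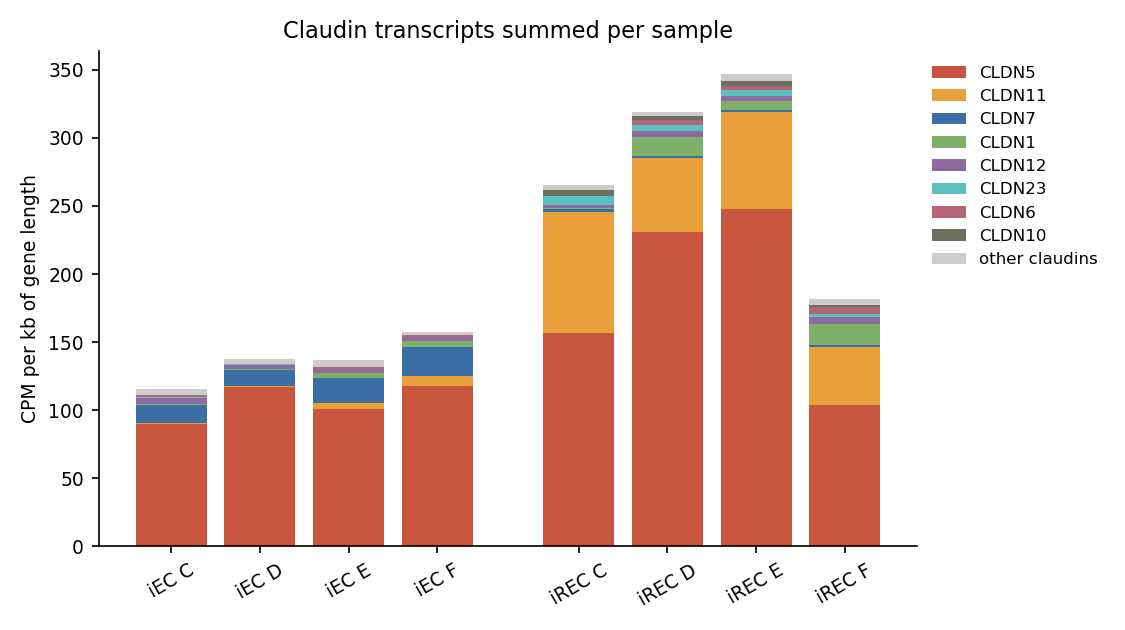
Summed claudin level of each sample in CPM per kb of gene length, with 1 stacked bar per sample and 1 colour per claudin gene. CLDN5 forms the largest segment in all 8 samples, CLDN7 the second in iEC, and CLDN11 the second in iREC.

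CLDN5 was also set against CDH5, the cadherin of endothelial adherens junctions, which itself fell from 1351 ± 229 to 799 ± 204 CPM (SD of 4 samples; adjusted p 0.0299 by edgeR). The log2 ratio of CLDN5 to CDH5 per length was -1.001, -0.98, -1.04 and -1.19 in iEC C, D, E and F. In iREC it was -0.043, 0.83, 0.73 and 0.29. Each iREC ratio lay above each iEC ratio, iREC F included. The difference was 1.51 on the log2 scale (exact two-sided permutation test, p 0.0286, adjusted p 0.0286), and it was 1.56 without iREC F.

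**Figure D4:**
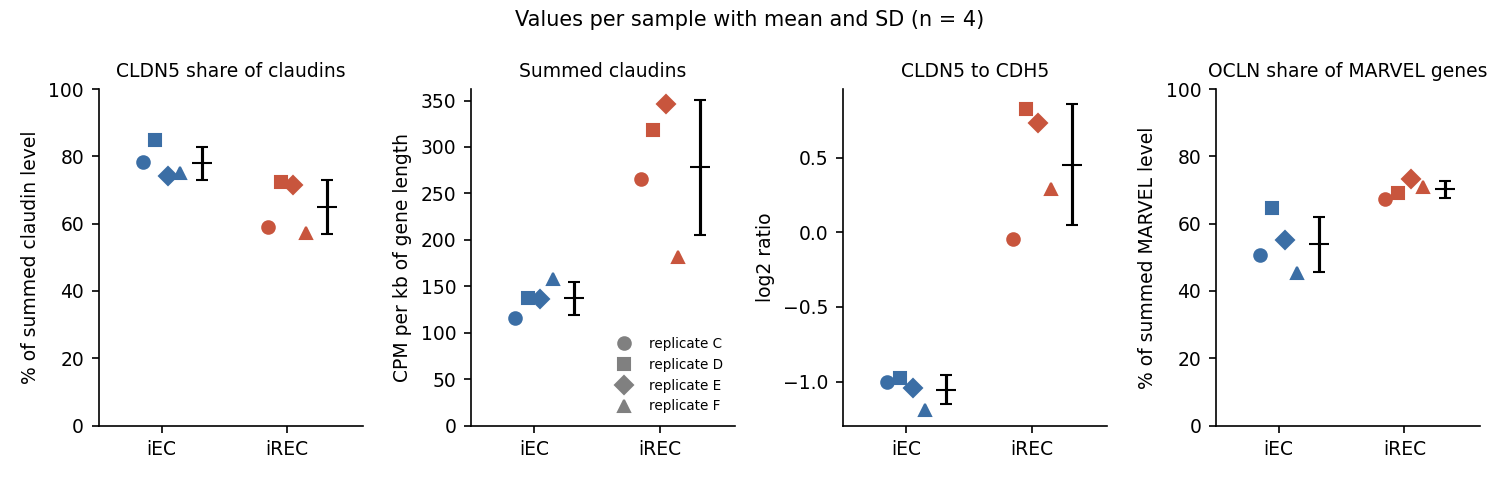
The 4 single values in each sample, with iEC in blue, iREC in red, and the mean and SD of 4 samples in black: the CLDN5 share of claudins (%), summed claudins (CPM per kb), the log2 ratio of CLDN5 to CDH5, and the OCLN share of the MARVEL genes (%). In every panel the groups do not overlap.

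OCLN (ENSG00000197822, chromosome 5, 69492292 to 69558104, plus strand) encodes occludin, the founding MARVEL protein of tight junctions. It was at 0.715, 3.98, 1.89 and 2.004 CPM in iEC C, D, E and F. In iREC it was at 21.3, 20.3, 25.2 and 17.0 CPM. The iREC values were narrow and all above the highest iEC value, that of D. OCLN rose 9.71-fold, from 2.15 ± 1.35 to 20.9 ± 3.34 CPM (SD, n = 4), or 3.28 ± 0.43 on the log2 scale (SE; adjusted p 0.000695 by edgeR). It was called in all 16 alternatives, with an adjusted p of at most 0.00428. The OCLNP1 pseudogene had 0 to 2 counts in any sample.

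MARVELD2 (ENSG00000152939, chromosome 5, 69415065 to 69444330, plus strand) encodes tricellulin and ends 47961 bases before OCLN begins. Its levels were 0.390, 1.26, 1.12 and 1.503 CPM in iEC C, D, E and F, and 5.43, 3.14, 3.11 and 3.67 CPM in iREC. The iREC samples all lay above the iEC samples, with iREC C the highest. MARVELD2 rose 3.57-fold, from 1.07 ± 0.480 to 3.84 ± 1.09 CPM (SD, n = 4), by 1.84 ± 0.41 on the log2 scale (SE; adjusted p 0.0112 by edgeR). The call held in all 15 alternatives that tested the gene, and the stricter filter removed MARVELD2 and MARVELD3.

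MARVELD3 (ENSG00000140832, chromosome 16, 71626161 to 71642114, plus strand), the third MARVEL protein of tight junctions, lay near the floor in iEC, with 3, 9, 2 and 7 counts (0.195, 0.569, 0.118 and 0.501 CPM) in C, D, E and F. In iREC it had 50, 68, 82 and 34 counts (3.27, 4.85, 5.01 and 2.23 CPM). The lowest iREC sample, F, lay well above the highest iEC sample, D. All iEC counts were too low for the filter on low counts, so MARVELD3 passed it through iREC alone. Its lack of overlap follows from that filter and is no separate result. MARVELD3 rose from 0.346 ± 0.222 to 3.84 ± 1.33 CPM (SD, n = 4). On the log2 scale the difference was 3.46 ± 0.52 (SE; adjusted p 0.00142 by edgeR), called in all 15 alternatives that tested it. PHLPP2, on the opposite strand, shares 1068 exon bases with MARVELD3 and averaged 21.4 and 24.4 CPM. Whether counting used the strand is not stated, so reads of the shared bases cannot be assigned to either gene and the MARVELD3 counts are uncertain.

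Within the MARVEL family, OCLN took a larger share of the summed level per length in iREC. The share was 50.7%, 64.5%, 55.1% and 45.3% in iEC C, D, E and F, and 67.4%, 69.2%, 73.3% and 71.0% in iREC. The lowest iREC share exceeded the highest iEC share. Means were 53.9% ± 8.14 and 70.2% ± 2.50 (SD, n = 4; exact two-sided permutation test, p 0.0286, adjusted p 0.0286). The iEC shares rest on few reads of MARVELD2 (6 to 21 counts) and MARVELD3.

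LSR (ENSG00000105699, chromosome 19, 35248330 to 35267964, plus strand), the angulin of tricellular contacts, had 2.41, 1.01, 1.36 and 0.644 CPM in iEC C, D, E and F. In iREC it had 1.77, 4.21, 3.42 and 14.5 CPM. Only iREC C fell within the iEC range, and iREC F stood far above the rest. LSR rose from 1.36 ± 0.759 to 5.97 ± 5.76 CPM (SD, n = 4), by 2.13 ± 0.68 on the log2 scale (SE; adjusted p 0.0465 by edgeR). With iREC F left out the log2 fold change was 1.197 and the adjusted p 0.105 by edgeR, so the call and much of the size rest on that sample. The call was lost in 8 of 16 alternatives, limma-voom among them (adjusted p 0.104).

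CLDN1, CLDN6, CLDN12 and LSR shared an order within iREC: C was lowest, then E, D and F. The summed level of the 16 epithelial markers had that order too, at 329, 470, 1180 and 5038 CPM. It was not particular to them. The pluripotency sum had the same order, as did the oligodendrocyte and Sertoli sum, at 6.67, 21.4, 24.4 and 36.2 CPM. TNFRSF12A, which shares exon bases with CLDN6, also had it, at 14.4, 23.3, 57.2 and 93.7 CPM. In iEC the epithelial sum was 450, 393, 675 and 1179 CPM in C, D, E and F, and CLDN1 had its order there as well. In iEC the other 3 genes did not follow that order: LSR and CLDN12 were lowest in F, and CLDN6 was higher in C than in E. Of the epithelial list, 8 genes were tested and 4 were called by edgeR, all higher (SPINT1, SPINT2, KRT7 and ESRP2), with a list median of 2.18. Over all tested genes, 13.2% were called higher. SPINT2 rose from 1.34 ± 0.818 to 39.9 ± 12.7 CPM (SD of 4 samples; adjusted p 0.000123 by edgeR).

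The defining epithelial genes differed among themselves. CDH1, the epithelial cadherin, was at 0 in iREC C and at 5.14, 1.16 and 81.6 CPM in D, E and F, with at most 0.065 CPM in iEC. EPCAM was at 0.489 to 3.28 CPM in iREC and 1.01 to 2.08 CPM in iEC. The keratin KRT8 was at 98.6, 602, 195 and 3025 CPM in the iREC samples, lettered C to F in order. ESRP1 was at 0 in all iEC samples and at most 0.328 CPM in iREC. The part of these markers in the levels of CLDN1, CLDN6, CLDN12 and LSR was not tested. GRHL2, also on the epithelial list, was at most 0.118 CPM in iEC. In iREC it was at 1.57, 1.36, 2.26 and 0.393 CPM in C, D, E and F, and OCLN had the same order within iREC. So iREC C held GRHL2 but no CDH1 counts. In that sample the levels of OCLN and MARVELD3 fell between those of iREC D, E and F. Those of MARVELD2 and CLDN11 were above them. The part of the epithelial markers in the levels of OCLN, MARVELD2, MARVELD3 and CLDN11 was not tested. CLDN5 did not follow the iREC order of the epithelial sum. CLDN7 ran in the reverse order, with 4.78, 4.40, 3.997 and 2.88 CPM in iREC C, E, D and F, which was not tested.

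**Figure D5:**
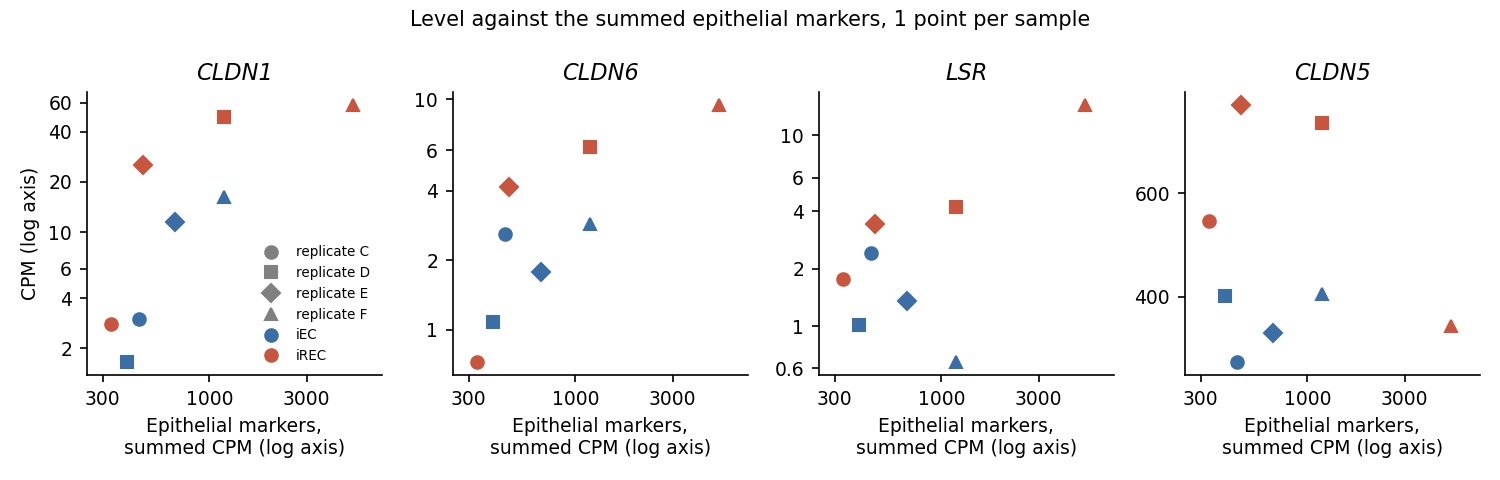
Level of CLDN1, CLDN6, LSR and CLDN5 in CPM against the summed level of 16 epithelial markers in CPM, both on log axes, with 1 point per sample, iEC in blue and iREC in red. In iREC the first 3 genes increase in the order of the epithelial sum from C to F, while CLDN5 is lowest in iREC F, where that sum is 5038 CPM.

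Mural and mesenchymal markers summed to 240 to 501 CPM in iEC and 646 to 4583 CPM in iREC. Of 10 tested genes, 3 were called higher (TAGLN, NOTCH3 and LUM) and 1 lower (RGS5), against 13.2% and 11.7% of all tested genes. That count of 4 calls was 9 without iEC F, 8 without iREC C, 2 without iREC D, 3 without iREC F and 7 by DESeq2. The list of retinal pigment epithelium and neuron markers stayed low, at 7.21 to 10.2 CPM in iEC and 3.79 to 11.3 CPM in iREC, with BEST1 higher and TUBB3 lower of 4 tested genes. Their part in the junction gene levels was not tested. Of the 12 endothelial markers, 2 were called higher (EMCN and TEK) and 5 lower (PECAM1, CDH5, ROBO4, EGFL7 and ESAM), beside the same shares over all tested genes. PECAM1 fell from 2233 ± 286 to 754 ± 175 CPM (SD of 4 samples; adjusted p 0.000632 by edgeR).

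Among the other claudins and angulins, 17 of 22 listed genes were in the table and 6 were tested. CLDN10 and CLDN23 were called higher and 0 were called lower, against 13.2% and 11.7% of all tested genes. CLDN10, a pore-forming claudin, rose from 0.107 ± 0.140 to 10.5 ± 4.51 CPM (SD of 4 samples; adjusted p 0.000432 by edgeR), with 0 to 5 counts in any iEC sample. It passed the filter on low counts through iREC alone. CLDN23 rose from 0.922 ± 0.557 to 9.34 ± 4.06 CPM (SD of 4 samples; adjusted p 0.00219 by edgeR). CLDN15, CLDN20, CLDND1 and ILDR2 were not called. The median log2 fold change of the 6 was 0.26.

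Of 23 listed adhesion molecules and plaque proteins of tight junctions, 20 were tested, 5 were called higher and 3 lower, with a median log2 fold change of -2.66e-05. CGN (cingulin) rose from 0.894 ± 1.11 to 15.9 ± 6.85 CPM and CGNL1 (paracingulin) from 63.3 ± 17.1 to 393 ± 95.8 CPM (SD of 4 samples; by edgeR, adjusted p 0.00637 and 0.000128). PATJ, a polarity scaffold, rose from 1.28 ± 0.507 to 6.03 ± 2.20 CPM, and MAGI1 and AMOTL2 were also higher. The adhesion molecules JAM2 and ESAM fell, ESAM from 430 ± 56.1 to 225 ± 71.3 CPM, as did AMOTL1. The scaffold TJP1 (ZO-1), for which the line is named, was at 134 ± 46.4 and 210 ± 32.8 CPM and was not called (edgeR adjusted p 0.0701).

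Of 20 listed transcription factors that have been reported to act on claudin or occludin genes, 12 were tested. Among these, 5 were called higher and 0 lower, against 13.2% and 11.7% of all tested genes, with a median of 0.78. FOXC2, a regulator of lymphatic and arterial vessels, rose from 5.02 ± 1.503 to 41.5 ± 8.84 CPM (SD of 4 samples; adjusted p 9.87e-05 by edgeR). The repressors SNAI2 and ZEB2 rose, SNAI2 from 4.06 ± 2.79 to 27.5 ± 12.5 CPM and ZEB2 from 68.0 ± 26.8 to 211 ± 58.4 CPM. Their relatives SNAI1 and ZEB1 were not called, with log2 fold changes of -0.70 and -0.59. FOXO1 and FLI1 were also higher, and ERG and SOX17, which are known to act on endothelial junction genes, were not called (edgeR adjusted p 0.713 and 0.816).

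Protein-coding genes whose log2 CPM was most like that of CLDN5 over the 8 samples included CAT and EPOR, with Pearson r of 0.981 and 0.980 among 9524 genes of at least 10 CPM. Those most like OCLN were IL18R1, CYP2U1 and HTR1B, with r of 0.992, 0.992 and 0.988. The points include both groups, so each r also holds the difference between them. CAT and EPOR had their lowest iREC value in iREC F, as CLDN5 did.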

How the data were processed

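RNA was measured by sequencing of poly-A selected RNA in 8 samples, 4 of iEC and 4 of iREC. The authors deposited 1 table with raw read counts per gene and sample, per the file headers. It also holds normalized counts (a signal scaled by 1 size factor per sample), FPKM values, log2 fold changes and p-values with their adjusted values, all deposited by the authors and with the test not named in the headers. The submitters' processing notes name fastp, HISAT2 2.0.5 and hg38, with no role given. The counting program is not given in the sources used here. The labels' protocols give a second strand made with dUTP, and whether counting used the strand is not stated. All 30386 identifiers and the coordinates of all 10 genes matched GENCODE 29 on GRCh38. 0 columns belonged to other samples.

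Counts were filtered with filterByExpr, scaled by TMM and compared with edgeR 4.0.16 (glmQLFit and glmQLFTest, group as the only term, all 8 samples), with Benjamini-Hochberg adjustment over the 15330 tested genes. The threshold for a call was 0.05 on the adjusted p, and SE values come from the coefficient and its F statistic. Log2 CPM used a prior count of 2. Shares, sums and ratios used CPM per kb of gene length and an exact two-sided permutation test over 70 assignments (scipy 1.17.1), adjusted over 4 values. Counting error sets the precision at low levels, and the floor of 3 counts covers counting error only. The procedure was tested on simulated data.

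Other settings were scaling by upper quartile, by DESeq2 size factors or by library size alone, tests without a filter or with a stricter one (mean count of 50, and 1 CPM throughout a group), DESeq2 1.42.0, limma-voom (limma 3.58.1), the replicate letter as a block, and each sample left out in turn. For the single values they were deposited FPKM, library size only and the claudins among the 10 genes. The CLDN1 share without iREC F was added after seeing the data. The labels do not say whether a letter marks a shared differentiation. Correlations of same-letter deviations ran from -0.079 to 0.25, with 2 of 4 over 0.1. Such correlations cannot settle whether the samples are paired, so the main fit used no pairs.

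The genes and lists were chosen with earlier results of these data known. The rule named all 10 genes, PECAM1, CDH5, up to 3 called genes per direction of each other list whose groups do not overlap, and the 3 genes of at least 10 CPM most like CLDN5 and OCLN, of which 1 is not reported here. Other genes of the marker and pathway lists fall outside the rule, as do the genes that overlap CLDN6, CLDN7, CLDN11, CLDN12 or MARVELD3. Both sets were picked with their values known. Motifs were searched on both strands of the 250 bases before each RefSeq start site.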

Additional observations from a re-analysis of the deposited data

How the results depend on the processing

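The 4 single values kept their direction under each alternative run. Deposited FPKM and library size only rescale each sample, so the shares and the ratio could not change under them. The counts of calls among the 10 genes and over all genes stayed within 1.5 times of those reported. Counts for some lists moved further: over the alternatives, 1 to 7 epithelial, 2 to 9 mural, 2 to 5 pluripotency, 0 to 2 retinal, 0 to 1 oligodendrocyte and Sertoli, and 4 to 8 transcription factor genes were called. Called genes among the 10 numbered 7 with DESeq2, upper quartile scaling and no filter. They numbered 6 with DESeq2 size factors and with library size only, and 5 with limma-voom, the stricter filter and the replicate block. Whether the letters mark pairs is not known, so the block cannot be read as a paired analysis or set aside. With each sample left out the called genes numbered 5 to 8. In those fits the CLDN5 share differed by -15.4 to -10.3 percentage points, the summed claudin level by 118 to 173 CPM per kb, the log2 ratio of CLDN5 to CDH5 by 1.38 to 1.67 and the OCLN share by 13.4 to 19.9 points. The calls of CLDN7, CLDN11, OCLN, MARVELD2 and MARVELD3 held in each alternative that tested them, while those of CLDN5 and LSR were lost in 11 and 8 of 16. Under the replicate block their edgeR adjusted p were 0.0879 and 0.152. CLDN1 and CLDN6 were called without iREC C and in no other alternative. Over all genes, 2660 to 4214 were called with a sample left out and 4664 by DESeq2. The cause of these changes was not tested. At under 5 CPM in iEC, as for OCLN, MARVELD2, MARVELD3 and LSR, fold changes rest on few reads.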
